A study of Mus musculus with 2 samples.

Results

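The Hedgehog genes described here were the ligand genes *Ihh*, *Shh* and *Dhh*, the receptor gene *Ptch1*, the transducer gene *Smo*, the transcription factor genes *Gli1*, *Gli2* and *Gli3*, and *Hhip*, which encodes a protein that binds and holds back the ligands. They were taken by gene symbol and not by their values, and all 9 were found among the 33696 genes listed in both single-cell RNA-seq libraries. The libraries came from neonatal ICR mice whose hindlimb digits 2 and 4 were amputated through the middle phalanx (P2) on postnatal day (PN) 3. On PN7 a bead was implanted into the healed wound, coated with FGF8 at 500 ng/µl in one group and with 0.1% BSA in the control group, and tissue beyond the stump was collected 24 h later, at PN8, after the epithelium had been removed. Each library pooled 20 digits of 5 mice of both sexes, so there was 1 library per condition and no test across animals was possible. Where a digit did not respond to FGF8, its cells are in the FGF8 pool with the rest.

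Hedgehog ligands are secreted proteins that signal over short distances. In their absence Ptch1 keeps Smo inactive, and Gli3 and Gli2 are processed to repressors. When a ligand binds Ptch1, Smo becomes active at the primary cilium and the Gli proteins act as activators, and *Gli1*, *Ptch1* and *Hhip* are textbook targets whose transcription then rises. In the growth plate, Ihh is made by chondrocytes that are leaving the proliferative pool. Shh is known from the limb bud, hair follicle and nail, and Dhh from Schwann cells and the testis.

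The FGF8 library held 7249 barcodes and the BSA library 3703, of which 6715 and 3252 passed the filters, with medians of 12251 and 15377 unique molecular identifiers (UMIs) per kept cell. Of the kept barcodes 4 occurred in both libraries. Levels are given as the UMIs of a gene per 1000000 UMIs (CPM) of the cells named, with exact 95% intervals that cover counting error only and not the spread between animals. Cell types were rebuilt by clustering, without the pathway genes among the features, and are called "-like" after marker lists. Clusters with no list of their own are called by their 2 leading genes. The sexes were not balanced: 1151 FGF8 cells were called female and 3523 male by their X- and Y-linked transcripts, against 1943 and 507 BSA cells, so values within each sex are given where they change a reading. Expression of the 9 genes was never zero in a whole library: *Gli3* was the most deeply sampled, with 13605 FGF8 and 7755 BSA UMIs, and *Shh* the least, with 58 and 24.

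The 3 ligand genes were each found mainly in a different cell type. The chondrocyte-like cells held 94.3% of all *Ihh* UMIs with FGF8 and 97.8% with BSA. The Schwann-like cells held 83.5% and 89.6% of the *Dhh* UMIs, and the epidermal keratinocyte-like cells 69.0% and 95.8% of the *Shh* UMIs. Of the 242 FGF8 cells and 93 BSA cells with a UMI of any ligand gene, 2 and 0 held UMIs of more than 1. Each gene was rare: *Ihh*, *Shh* and *Dhh* were seen in 96, 24 and 124 of the 6715 FGF8 cells. In the 3252 BSA cells they were seen in 22, 10 and 61. Whether the overlap was lower than this rarity alone would give was not tested.

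**Figure D1:**
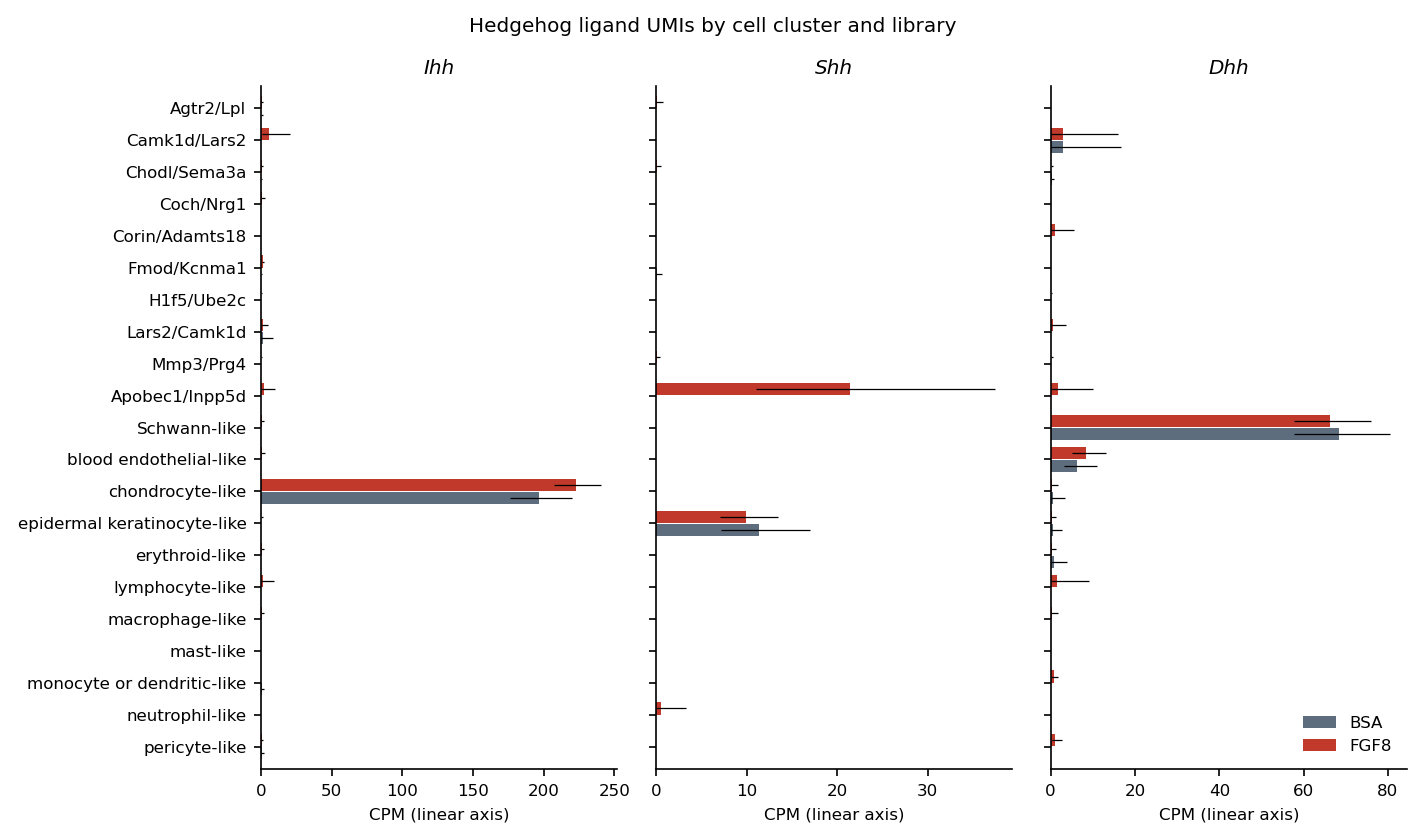
Levels of the 3 ligand genes as bars, in CPM on linear axes that differ between genes, in each finer cluster of the FGF8 (red) and the BSA (grey) library, with exact 95% Poisson intervals for counting error on bars above 0. *Ihh* stood highest in the chondrocyte-like and *Dhh* in the Schwann-like cells, and *Shh* was seen in both libraries in the epidermal keratinocyte-like cells, while its bar of 21.4 CPM in the FGF8 Apobec1/Inpp5d cells came from 1 cell.

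*Ihh* (ENSMUSG00000006538, chr1:74984474-74990837, minus strand, GRCm39) encodes Indian hedgehog, the ligand of the growth plate. In the chondrocyte-like cells it was counted 705 times in 134 FGF8 cells and 317 times in 54 BSA cells. This gave 223 CPM (207 to 240) for FGF8 and 200 CPM (178 to 223) for BSA, and the log2 ratio of 0.16 (-0.03 to 0.36) held 0. The ratio was larger under other settings, at 1.66 with a stricter cell filter, 1.03 and 0.58 with cells thinned to 2000 and 5000 UMIs, and 0.81 with every cell weighted equally. At least 1 *Ihh* UMI was seen in 42.5% of the FGF8 cells (34.0 to 51.4) and 29.6% of the BSA cells (18.0 to 43.6), and in 17.9% and 11.1% after each cell was thinned to 2000 UMIs, so the intervals of the shares overlapped. The counts came from few cells: the 14 FGF8 cells with most *Ihh* held 71.1% of its UMIs, the 6 BSA cells with most held 84.5%, and single cells reached 87 and 86 UMIs. The similar totals hid opposite values within the sexes. In female-called cells *Ihh* was at 118 CPM in 40 FGF8 cells and 240.5 CPM in 39 BSA cells, whereas in male-called cells it was at 243 CPM in 79 FGF8 cells and 113 CPM in 11 BSA cells, where all 33 UMIs came from 1 cell.

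Chondrocyte-like cells with an *Ihh* UMI carried more of the hypertrophic collagen gene *Col10a1* than those without, in both libraries. It was at 1159 CPM in the 57 FGF8 cells with *Ihh* and 376 CPM in the 77 without, and at 4809 CPM in the 16 BSA cells with *Ihh* and 130 CPM in the 38 without. *Pth1r*, the receptor gene for parathyroid hormone-related peptide, followed the same order, at 253 against 108 CPM with FGF8 and 735 against 202 CPM with BSA. *Runx2*, a transcription factor gene of maturing cartilage and bone, was at 499 against 287 CPM and at 360 against 297 CPM. Among cells with *Ihh*, those of the FGF8 library therefore held less *Col10a1* and *Pth1r* per UMI than those of the BSA library. *Gli2* had the opposite arrangement, with 6 UMIs in the FGF8 cells with *Ihh* and 38 in those without, and with 0 UMIs in the 16 BSA cells with *Ihh* and 32 in those without. Cells with an *Ihh* UMI were also deeper, with median UMIs of 27220 against 20050 with FGF8 and 38340 against 23170 with BSA, and the part of depth in these contrasts was not tested.

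**Figure D2:**
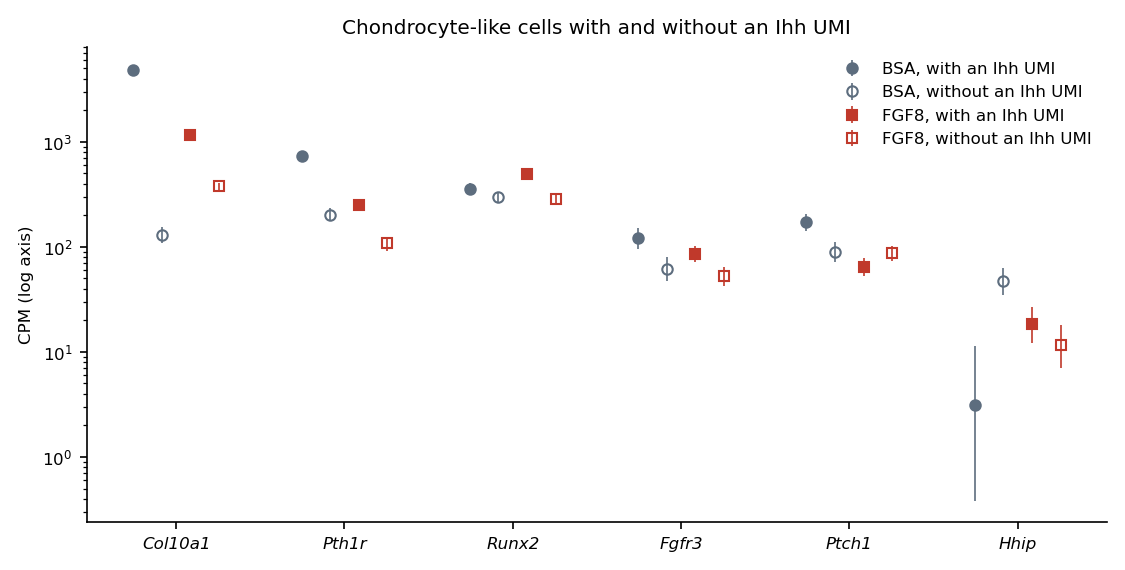
CPM, on a log axis, of *Col10a1*, *Pth1r*, *Runx2*, *Fgfr3*, *Ptch1* and *Hhip* in chondrocyte-like cells with (filled) and without (open) an *Ihh* UMI, in the FGF8 (squares) and the BSA (circles) library, with exact 95% Poisson intervals for counting error. *Col10a1*, *Pth1r*, *Runx2* and the receptor gene *Fgfr3* stood higher in the cells with *Ihh* in both libraries, and *Ptch1* and *Hhip* did so in 1 library each.

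Outside the chondrocyte-like cells *Ihh* was sparse. The fibroblast-like cells held 31 UMIs, spread over 27 cells, in the FGF8 library, and 5 UMIs over 4 cells in the BSA library. These are 0.443 and 0.141 CPM, a log2 ratio of 1.66 (0.28 to 3.38). Erythroid-like cells, which should not make a Hedgehog ligand, were at 0.649 CPM in the FGF8 library, with 3 *Ihh* UMIs in 613 cells, and held none in the BSA library. In the FGF8 library the fibroblast-like level lay below that erythroid-like value, whose interval was 0.134 to 1.90 CPM. It lay above the values of macrophage-like (0.389 CPM), pericyte-like (0.273 CPM) and neutrophil-like cells (0 CPM). Each of these rested on at most 4 UMIs, and 0.443 CPM was inside the interval of each, so they could not place it above or below background. The shares of fibroblast-like cells with a UMI, 0.810% and 0.232%, came to 0.0945% and 0.0614% after thinning to 2000 UMIs. In the Fmod/Kcnma1 cells, named after the genes of fibromodulin and a potassium channel, 10 of the FGF8 UMIs stood against 1 BSA UMI (log2 ratio 3.16, 0.35 to 8.60).

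*Shh* (ENSMUSG00000002633, chr5:28661813-28672254, minus strand) encodes Sonic hedgehog. In the epidermal keratinocyte-like cells it was counted 40 times in 19 of 239 FGF8 cells and 23 times in 9 of 170 BSA cells. The levels were 9.90 CPM (7.07 to 13.5) and 11.3 CPM (7.18 to 17.0), and the log2 ratio of -0.19 (-0.97 to 0.61) held 0. Single cells held up to 8 and 12 UMIs. These keratinocyte-like cells were present although the epithelium had been removed. In the FGF8 library a further 12 *Shh* UMIs came from 1 cell of the 153 Apobec1/Inpp5d cells, which put that low-depth cluster at 21.4 CPM (11.1 to 37.5), and the 46 BSA cells of that cluster held none.

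*Dhh* (ENSMUSG00000023000, chr15:98789033-98796439, minus strand) encodes Desert hedgehog, which Schwann cells use to organise the nerve sheath. In the Schwann-like cells it was counted 212 times in 240 FGF8 cells and 146 times in 125 BSA cells. The levels were 66.4 CPM (57.7 to 75.9) and 68.5 CPM (57.8 to 80.5), with a log2 ratio of -0.04 (-0.36 to 0.27). The shares of cells with a UMI were 37.5% and 36.0%, and 10.6% and 8.40% after thinning, against 0.163% in the FGF8 erythroid-like cells. As with *Ihh*, the sexes went opposite ways, with 39.2 CPM in 49 FGF8 and 74.2 CPM in 87 BSA female-called cells, and 77.2 CPM in 154 FGF8 and 35.1 CPM in 18 BSA male-called cells. The blood endothelial-like cells came next in the order of levels, far below, with 18 and 11 UMIs or 8.35 and 6.15 CPM (log2 ratio 0.44, -0.72 to 1.67).

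Most UMIs of the genes of reception and response lay in the fibroblast-like cells, the largest cell group. That group held 74.4% and 79.9% of the *Ptch1* UMIs of the FGF8 and the BSA library, and from 83.6% to 94.6% of the UMIs of *Smo*, *Gli1*, *Gli2*, *Gli3* and *Hhip*. Over all genes it held 69933322 of 103223720 FGF8 UMIs and 35554156 of 54376379 BSA UMIs. Per UMI *Ptch1* was higher in the chondrocyte-like cells (76.6 and 123 CPM) than in the fibroblast-like cells (43.3 and 62.0 CPM). In the 250 bases before their start sites *Ptch1* and *Hhip* shared a high density of CpG dinucleotides, which is shown beside the promoter of *Dhh*. The sequences are from RefSeq on GRCm38.p6, which held 7 of the 9 genes, and each runs 5′ to 3′ on the minus strand with CpG in capitals: *Ptch1* at chr13:63565736-63565985, *Hhip* at chr8:80058009-80058258 and *Dhh* at chr15:98898541-98898790.
Ptch1: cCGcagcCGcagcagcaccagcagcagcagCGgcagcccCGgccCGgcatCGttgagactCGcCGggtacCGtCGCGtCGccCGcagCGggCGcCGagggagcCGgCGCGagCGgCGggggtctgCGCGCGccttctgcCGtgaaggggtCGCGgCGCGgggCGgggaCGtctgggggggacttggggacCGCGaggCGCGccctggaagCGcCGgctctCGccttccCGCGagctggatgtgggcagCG
Hhip: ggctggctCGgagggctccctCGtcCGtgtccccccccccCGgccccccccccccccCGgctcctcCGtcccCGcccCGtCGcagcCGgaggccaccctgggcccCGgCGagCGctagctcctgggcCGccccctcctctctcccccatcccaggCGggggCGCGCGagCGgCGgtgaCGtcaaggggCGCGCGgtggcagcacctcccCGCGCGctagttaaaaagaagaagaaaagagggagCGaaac
Dhh: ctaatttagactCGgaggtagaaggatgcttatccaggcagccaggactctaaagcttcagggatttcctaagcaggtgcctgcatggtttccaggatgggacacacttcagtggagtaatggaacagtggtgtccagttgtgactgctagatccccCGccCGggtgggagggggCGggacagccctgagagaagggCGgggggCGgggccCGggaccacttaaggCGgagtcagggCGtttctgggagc
The window held 41 CpG for *Ptch1*, more than 98.9% of the 32851 promoters of the table, 28 for *Hhip*, more than 92.4% of them, and 9 for *Dhh*, more than 59.7%. *Gli3* had 34, *Ihh* 24, *Gli2* 22 and *Smo* 15, and the median promoter had 6. The letters GACCACCCA, a form of the Gli site, were looked for on both strands from 250 bases before to 50 after each start and were in none of the 7 promoters and in 0.253% of all promoters.

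In the fibroblast-like cells, of which 3333 were FGF8 and 1725 BSA cells, the 6 receptor, effector and inhibitor genes were all lower per UMI in the FGF8 library. *Hhip* and *Gli1* had the lowest ratios and *Smo* and *Gli3* those nearest to 0. *Hhip* (ENSMUSG00000064325, chr8:80692480-80784658, minus strand) had 1461 FGF8 and 1318 BSA UMIs, which are 20.9 CPM (19.8 to 22.0) and 37.1 CPM (35.1 to 39.1). Its log2 ratio of FGF8 over BSA was -0.83 (-0.94 to -0.72). *Gli1* (ENSMUSG00000025407, chr10:127165751-127177865, minus strand), the activator whose own transcript is a readout of the pathway, had 431 and 350 UMIs, 6.16 and 9.84 CPM, and a log2 ratio of -0.68 (-0.88 to -0.47). *Ptch1* (ENSMUSG00000021466, chr13:63656142-63721412, minus strand), at once receptor and target, had 3026 and 2204 UMIs, 43.3 CPM (41.7 to 44.8) and 62.0 CPM (59.4 to 64.6), and a log2 ratio of -0.52 (-0.60 to -0.44).

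Among the factors that carry the signal but are not classic targets, *Smo* and *Gli3* had ratios nearer to 0 in the whole group. *Gli2* (-0.51) lay beside the target *Ptch1* (-0.52). In female-called cells *Smo* (-0.34), *Gli2* (-0.35) and *Gli3* (-0.21) lay farther from 0 than *Ptch1* (-0.19). *Gli2* (ENSMUSG00000048402, chr1:118761858-118982598, minus strand), the main activator, had 3168 and 2290 UMIs, 45.3 and 64.4 CPM and a log2 ratio of -0.51 (-0.59 to -0.43). *Gli3* (ENSMUSG00000021318, chr13:15637809-15904611, plus strand), the main repressor, had 11497 and 6717 UMIs, 164 and 189 CPM and a log2 ratio of -0.20 (-0.24 to -0.16). *Smo* (ENSMUSG00000001761, chr6:29735407-29762532, plus strand) had 3800 and 2226 UMIs, 54.3 and 62.6 CPM and a log2 ratio of -0.20 (-0.28 to -0.13). The sign of *Gli3* turned when each cell was thinned to 2000 UMIs (0.01) or weighted equally (0.09).

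**Figure D3:**
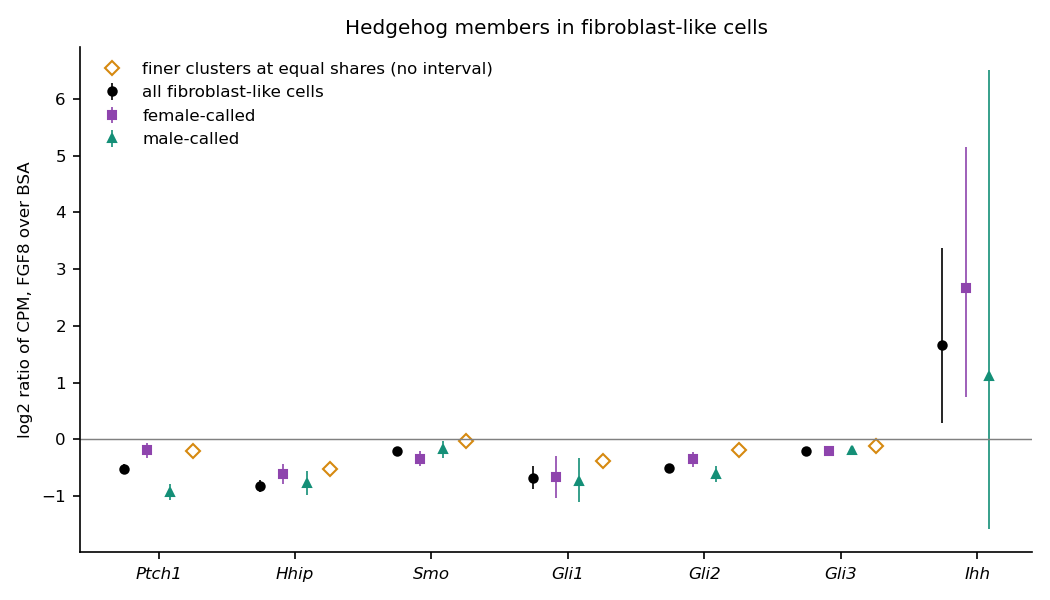
log2 ratio of FGF8 over BSA CPM for 7 Hedgehog genes in all fibroblast-like cells (circles) and in their female-called (squares) and male-called cells (triangles), with exact conditional 95% intervals for counting error, and with the finer clusters at equal shares in both libraries (diamonds, no interval). *Ptch1*, *Smo*, *Gli1*, *Gli2*, *Gli3* and *Hhip* lay below 0 in all of these, with *Smo* at -0.03 at equal shares. In settings not drawn, *Gli3* turned to 0.09 with every cell weighted equally and *Gli1* to 0.0037 at resolution 0.2.

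Against all genes, 8 of the 9 could be compared, with at least 10 UMIs over both libraries. Of these, 6 had an interval below 0, where 31.7% of all 20057 genes compared did, and 1, *Ihh*, had an interval above 0, where 23.1% did. A difference past 2-fold was reached by 2, *Ihh* and *Dhh*, on 36 and 11 UMIs in all, where 11.6% of all genes reached it, and by none of the 6 genes of reception and response. The median log2 ratio was -0.36 over the 8 genes and -0.07 over all genes. The 8 markers of fibroblasts summed to 12000 CPM with FGF8 and 20500 CPM with BSA, and the 5 of joint lining to 2160 and 322 CPM. These sums do not separate the makeup of the group from expression within its cells, and their part in the ratios was not tested.

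Shares of cells with a UMI were lower in the FGF8 library for 5 of the 6 genes, a count that was not made over all genes. *Hhip* was seen in 16.5% of FGF8 and 22.1% of BSA cells, and after thinning to 2000 UMIs in 4.31% and 7.24%. *Gli1* was seen in 9.60% and 14.5%, thinned 1.64% and 2.21%, and *Ptch1* in 35.3% and 38.2%, thinned 8.34% and 10.2%. *Gli3* was seen in 81.0% and 80.6%, thinned 29.2% and 30.4%. In erythroid-like cells, with medians of 6983 and 18730 UMIs against 18600 and 19930 in the fibroblast-like cells, the unthinned shares were 0.653% and 0% for *Hhip*, 0.163% and 2.44% for *Gli1*, 2.61% and 7.32% for *Ptch1*, and 5.06% and 8.54% for *Gli3*. The shares in fibroblast-like cells were far above these.

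Within the sexes the 6 genes kept their side of 0. In female-called fibroblast-like cells all 6 had intervals below 0, where 29% of the genes compared did, and in male-called cells all 6 did, where 22.4% did. *Hhip* was at 23.8 and 36.3 CPM in female-called cells (log2 ratio -0.61) and at 20.3 and 34.8 CPM in male-called cells (-0.77). *Ptch1* differed more between the sexes, at 49.0 and 56.0 CPM in female-called cells (-0.19, -0.32 to -0.06) and at 39.7 and 75.8 CPM in male-called cells (-0.93, -1.07 to -0.79). Those intervals did not overlap, and the difference between the sexes was not tested, since each sex was 1 pool per condition.

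The fibroblast-like cells were divided into 9 finer clusters, whose shares differed between the libraries. Mmp3/Prg4 cells, led by genes of a matrix metalloproteinase and of lubricin, made up 17.6% of them with FGF8 and 9.04% with BSA, and H1f5/Ube2c cells, led by genes of dividing cells, 16.8% and 7.07%. Together with their high UMI counts they supplied 26.1% and 29.1% of the UMIs of the group with FGF8 and 13.2% and 11.7% with BSA. *Ptch1* and *Hhip* were lower in both clusters than in the whole group, in both libraries. For *Ptch1* the Mmp3/Prg4 cells were at 16.3 and 14.9 CPM, and the whole group at 43.3 and 62.0 CPM. The H1f5/Ube2c cells were not the lowest for either gene, and their *Ptch1* lay near that of the Fmod/Kcnma1 cells. With the 9 clusters given equal shares in both libraries, a setting chosen after the data were seen, the log2 ratios moved to -0.52 for *Hhip*, -0.39 for *Gli1*, -0.21 for *Ptch1*, -0.19 for *Gli2*, -0.11 for *Gli3* and -0.03 for *Smo*. Another division, at resolution 0.2, left a cluster led by *Prg4* out of the fibroblast-like cells. The leading genes of that cluster included genes of tenocytes, joint lining and dividing cells. A low-UMI cluster led by *Lars2* and *Camk1d* was also outside. In the fibroblast-like cells of that division *Hhip* was at -0.22, *Ptch1* at -0.05, and *Gli1* and *Gli3* turned to 0.0037 and 0.04.

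Ratios were also taken within the finer clusters, over all cells of each. The fibroblast markers summed to less in the FGF8 library in every one of these clusters. Their sums were 7120 against 12600 CPM in the H1f5/Ube2c cells and 6090 against 10200 CPM in the Mmp3/Prg4 cells. The part of this in the ratios was not tested. *Hhip* was lower in the FGF8 library in 8 of the 9 clusters, and its interval lay below 0 in 7, where 2.47% of 7685 genes had as many. Its log2 ratio ran from -1.40 to 0.69 with a median of -0.68. *Ptch1* had an interval below 0 in 2 clusters, *Gli1* in 3 of the 8 in which it could be compared, *Gli2* in 3, *Gli3* in 2 and *Smo* in 1, and 19.5% of genes had one in at least 3. The medians over clusters were -0.20 for *Ptch1*, -0.47 for *Gli1*, -0.15 for *Gli2* and 0.09 for *Gli3*.

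The *Hhip* ratio differed in size between the finer clusters. *Hhip* was at 12.1 against 28.1 CPM in the H1f5/Ube2c cells (log2 ratio -1.21), and at 6.13 against 14.3 CPM in the Mmp3/Prg4 cells (-1.22). In the Agtr2/Lpl cells, led by genes of an angiotensin receptor and lipoprotein lipase, it was at 46.3 against 74.0 CPM (-0.68). The Chodl/Sema3a cells, the most numerous, had 20.5 against 27.9 CPM (-0.45), and the Coch/Nrg1 cells 52.8 against 69.9 CPM (-0.40). In the Lars2/Camk1d cells, with medians of only 2585 and 3324 UMIs, it was at 27.3 against 64.4 CPM (-1.24). In the Camk1d/Lars2 cells, with medians of 692 and 999 UMIs, it was at 22.8 against 60.2 CPM (-1.40). Only 60 of the 247 FGF8 and 71 of the 189 BSA Camk1d/Lars2 cells were fibroblast-like, so most cells behind that ratio lay outside the group. *Ptch1* followed in the H1f5/Ube2c cells, at 30.8 against 44.2 CPM (-0.52), and in the Fmod/Kcnma1 cells, at 29.5 against 45.0 CPM (-0.61), but not in the Mmp3/Prg4 cells (0.13, -0.25 to 0.52).

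**Figure D4:**
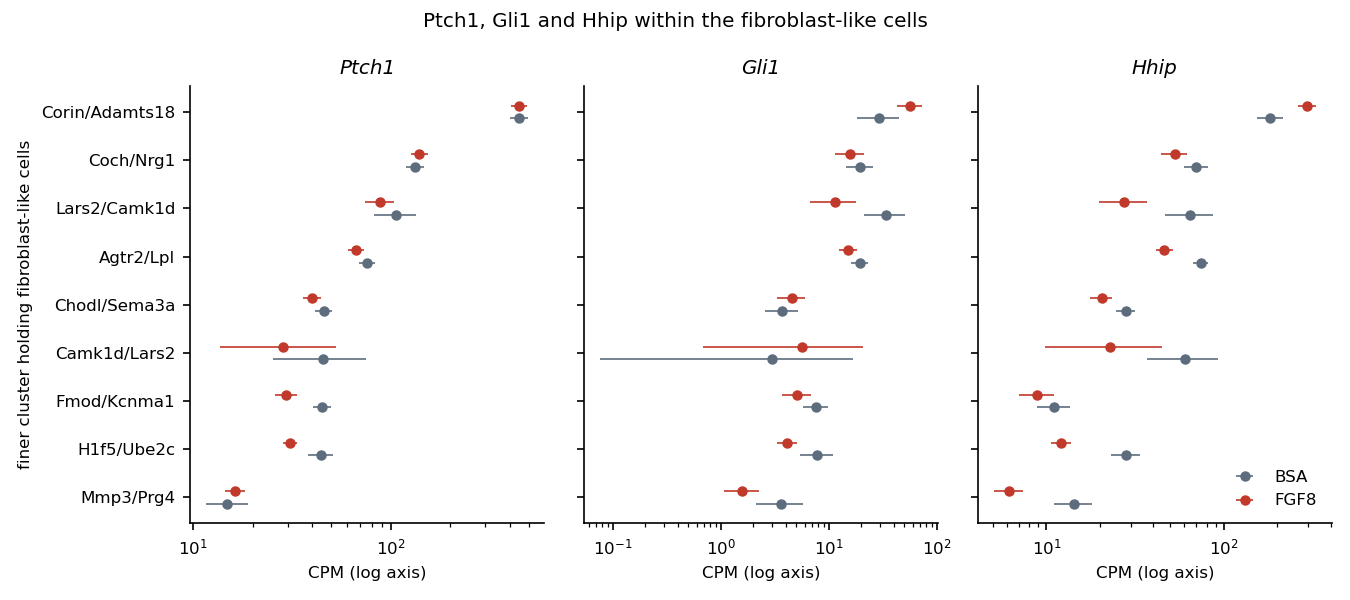
CPM, on log axes, of *Ptch1*, *Gli1* and *Hhip* in the 9 finer clusters that hold fibroblast-like cells, in the FGF8 and the BSA library, with exact 95% Poisson intervals for counting error. The Corin/Adamts18 cells had the highest *Ptch1* and *Hhip* in both libraries, and *Hhip* stood lower in the FGF8 library in every other cluster.

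A small cluster of 76 FGF8 and 37 BSA cells, led by *Corin* and *Adamts18*, which encode proteases, stood apart from the rest in its levels of pathway targets. *Ptch1* was at 445 CPM in both libraries (405 to 488 and 398 to 495), above the interval of every other finer cluster, the next being the Coch/Nrg1 cells at 139 and 133 CPM. Its log2 ratio was 0.00 (-0.21 to 0.21). *Gli1* had 57 UMIs against 22, or 56.4 CPM (42.7 to 73.1) against 29.2 CPM (18.3 to 44.2), and a log2 ratio of 0.95 (0.22 to 1.73). *Hhip* had 298 UMIs against 138, or 295 CPM (262 to 330) against 183 CPM (154 to 216), and a log2 ratio of 0.69 (0.39 to 0.99). *Gli1* and *Hhip* were thus higher here in the FGF8 library, while both were lower there in the fibroblast-like cells as a whole.

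That contrast rested on few cells. *Hhip* UMIs came from 38 FGF8 and 23 BSA Corin/Adamts18 cells, with up to 50 UMIs in 1 cell, and after thinning to 2000 UMIs per cell its log2 ratio was -0.0074, with the stricter cell filter 0.29 and with every cell weighted equally 0.20. Within the sexes *Hhip* was higher in the FGF8 library in both (430 and 186 CPM in female-called, 278 and 194 CPM in male-called cells). *Ptch1* went opposite ways, at 535 and 349 CPM in 19 and 21 female-called cells and at 368 and 541.5 CPM in 49 and 11 male-called cells. The co-receptor gene *Gas1* was at 49.5 and 146 CPM (log2 ratio -1.56). *Smo* was at 101 and 127 CPM, *Gli2* at 164 and 181 CPM, and *Gli3* at 122 and 90.3 CPM. The ligand genes were nearly absent from these cells, with 1 *Dhh* UMI in the FGF8 library and no *Ihh* or *Shh* UMI in either.

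In the chondrocyte-like cells, the source of *Ihh*, the receptor gene was lower in the FGF8 library, while the value of the inhibitor gene rested on 1 cell. *Ptch1* had 242 UMIs against 195, or 76.6 CPM (67.3 to 86.9) against 123 CPM (106 to 141), and a log2 ratio of -0.68 (-0.96 to -0.40). *Hhip* had 47 UMIs in each, or 14.9 CPM against 29.6 CPM, and a log2 ratio of -0.99 (-1.61 to -0.38), but 28 of the BSA UMIs came from 1 cell. Without the cell with most *Hhip* UMIs in each library, a setting chosen after the data were seen, the levels were 12.2 CPM in both and the ratio -0.0055, against -0.65 for *Ptch1* treated alike. With all cells these were 2 of the 7 members compared with an interval below 0, where 16.9% of all genes had one, and none lay above 0, where 12.8% did. *Smo*, *Gli1*, *Gli2* and *Gli3* had intervals that held 0. The *Ptch1* difference lay in the cells with an *Ihh* UMI, at 65.0 CPM (FGF8) and 172 CPM (BSA), against 87.5 and 90.2 CPM in the cells without. For *Hhip* the arrangement was the other way, with 18.4 and 3.15 CPM in cells with an *Ihh* UMI and 11.6 and 47.2 CPM in those without. Female-called cells had *Ptch1* at 54.3 and 124 CPM and male-called cells at 86.0 and 127 CPM, lower in the FGF8 library in both.

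Other genes of the growth plate loop differed in the same chondrocyte-like cells. *Pth1r* was at 178 and 415 CPM (log2 ratio -1.23) and *Col10a1* at 754 and 1999 CPM (-1.41). *Pthlh*, the gene of parathyroid hormone-related peptide, was at 10.4 and 4.41 CPM (1.24), where the BSA value rested on only 7 UMIs. The cyclin D genes *Ccnd1* and *Ccnd2* had log2 ratios of 1.67 and 1.18. Among co-receptor genes *Boc* had a log2 ratio of -1.30 and *Cdon* of -0.61. Of the 32 other pathway genes compared there, 9 had intervals above 0 and 5 below. The 8 chondrocyte markers were all lower in the FGF8 library, summing to 38900 against 54000 CPM, and the 6 erythroid markers summed to 2340 against 111 CPM. The part of these in the values was not tested.

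In the epidermal keratinocyte-like cells the receptor side stood higher in the FGF8 library, and 4 of the 6 members compared had an interval above 0, where 19.2% of all genes had one. *Ptch1* was at 70.0 and 50.3 CPM (log2 ratio 0.48, 0.15 to 0.82), *Smo* at 42.6 and 22.2 CPM (0.94), *Gli3* at 106 and 65.0 CPM (0.71) and *Gli2* at 25.5 and 8.38 CPM (1.61, 0.86 to 2.44). With the stricter cell filter the *Ptch1* ratio was 0.0058, and the *Gli2* ratio was 1.96 among female-called cells and 0.48 among male-called ones. The 104 BSA keratinocyte-like cells not called for sex held 0 *Gli2* UMIs. Depth differed as well, with medians of 11780 UMIs in the FGF8 and 4178 in the BSA keratinocyte-like cells, and its part in these ratios was not tested. Fibroblast markers moved with them, 7 of 8 being higher in the FGF8 keratinocyte-like cells with a sum of 1270 against 791 CPM, as did all 8 chondrocyte markers with 237 against 37.4 CPM, and their part was not tested. In the Schwann-like cells, which make *Dhh*, 1 of the 5 members compared had an interval above 0, *Ptch1* at 0.38 (0.01 to 0.77), where 7.57% of all genes had one, and none had one below 0, where 7.44% did. All 8 chondrocyte markers were higher in the FGF8 Schwann-like cells, summing to 430 against 75.5 CPM, and the 6 erythroid markers summed to 5960 against 858 CPM, and their part was not tested. In the macrophage-like cells of the coarser division 5 of the 7 members compared had an interval above 0, where 19.6% of all genes had one. *Ptch1* was there at 12.5 and 6.59 CPM. Among neutrophil-like cells 2 of the 5 members compared had one, where 12% did. Fibroblast markers summed to 1370 against 253 CPM in the macrophage-like cells of the finer division, and their part was not tested. In the pericyte-like cells only *Hhip* had an interval below 0, on 2 against 10 UMIs (-2.66, -5.89 to -0.43), where 7.54% of all genes had one. Those 10 BSA UMIs came from 2 cells, 7 of them from 1 cell.

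The 39 other genes of the pathway, listed by role from textbook knowledge, were all compared in the fibroblast-like cells, and 19 had an interval below 0 and 9 above, where 31.7% and 23.1% of all genes did. Their median log2 ratio was -0.17 against -0.07 over all genes. The 3 co-receptor genes were all lower in the FGF8 library, with *Cdon* at 142 and 237 CPM (log2 ratio -0.74), *Boc* (-0.58) and *Gas1* at 539 and 751 CPM (-0.48). Of the 5 genes of ligand lipidation and release, 3 had an interval below 0, among them *Disp1*, which lets ligands leave the cell, (-0.66), and *Scube2*, which carries them, at 4.13 and 8.97 CPM (-1.12). *Scube1* was the one above (0.33). In male-called cells *Scube2* was at -0.15 (-0.72 to 0.45) and *Scube1* at -0.02 (-0.59 to 0.59), so that both intervals held 0. With so few genes per role, these counts and those that follow are a description beside the shares over all genes.

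Inside the cell the pathway was more mixed. Of the 11 genes of Gli processing and regulation, 5 had an interval below 0 and 3 above, with a median of -0.04. *Gpr161*, a ciliary receptor that favours repressor formation, had a log2 ratio of -0.77 and *Kif7*, the kinesin of the cilium tip, of -0.55, while *Sufu*, which binds the Gli proteins, was at -0.04 with an interval that held 0. The protein kinase A subunit genes *Prkaca* and *Prkacb* were at 0.15 and 0.39. Of the 5 cilium genes 3 had an interval below 0 and 1 above. Of the 8 genes listed as candidate Gli targets, 2 had an interval below 0 and 2 above. Those above were *Foxl1*, a forkhead factor gene, on 70 against 13 UMIs (1.45), and *Ccnd1* at 303 and 94.3 CPM (1.68). *Ccnd1* drives entry into the cell cycle. Within the sexes the *Foxl1* interval held 0, at 0.79 (-0.82 to 2.40) in the female-called and at 0.64 (-0.67 to 2.32) in the male-called ones, whereas *Ccnd1* was at 1.96 and 1.74.

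**Figure D5:**
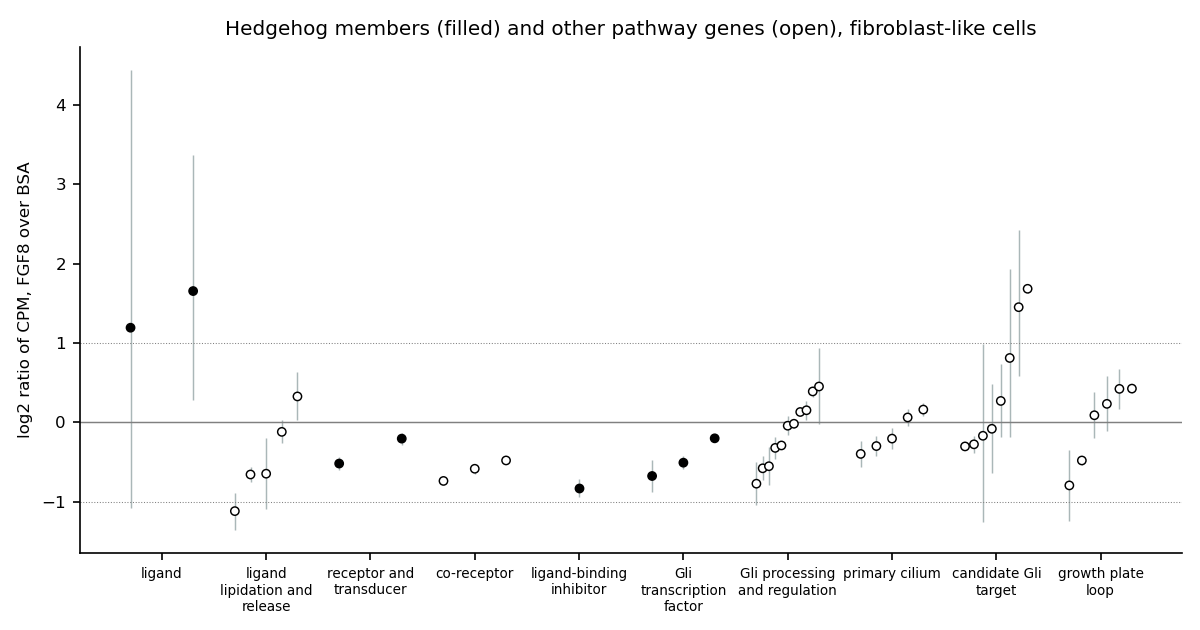
log2 ratio of FGF8 over BSA CPM in the fibroblast-like cells for the Hedgehog members (filled) and other pathway genes (open), grouped by role, with exact conditional 95% intervals for counting error; dotted lines mark 2-fold. The receptor, co-receptor, inhibitor and Gli genes lay below 0 (with every cell weighted equally *Gli3* turned to 0.09, and at resolution 0.2 *Gli1* to 0.0037), and *Foxl1* and *Ccnd1* lay above the upper dotted line.

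The genes whose levels were most like those of each member over the named finer cell types in both libraries are given as a description over 24 points, which share 2 libraries. *Ihh* was closest to *Gm45397*, *Clec3a* and the cartilage matrix gene *Matn1* (Pearson r of log2(CPM + 1) 0.977, 0.973 and 0.967), and *Dhh* to *Rp1*, *Ttyh1* and *Nkain4* (0.961, 0.940 and 0.933). *Gli1* was closest to *Asap3*, *Irx5* and *Thrb* (0.908, 0.895 and 0.875), among 16250 genes searched. *Ptch1* was closest to *Csgalnact1* (0.897), *Smo* to *Bcl2l2* (0.915), *Gli2* to *Nfix* (0.918), *Gli3* to *Rab34* (0.927) and *Hhip* to *Ccdc80* (0.873). *Shh* had too few UMIs for this comparison.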

How the data were processed

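Single-cell 3′ libraries of 1 FGF8-treated and 1 BSA-treated pool were measured. The deposited values are raw UMI counts per gene and barcode, which the authors made with Cell Ranger 9.0.0 on GRCm39, with no later cell filter. Cells with more than 200 and fewer than 7500 genes and under 15% mitochondrial UMIs were kept, after the study's methods. The libraries were merged, normalised with SCTransform, integrated by canonical correlation over 30 components and clustered at resolution 0.05 into 8 clusters (R 4.3.3, Seurat 5.3.0, seed 42), after 17 pathway genes were dropped from 3000 variable features. A finer division at resolution 0.8 gave 23 clusters. Names came from marker lists, by rules set once the leading genes were known. Scrublet (scanpy 1.11.5) called 0 doublets, so none were removed and its result is not informative.

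For each library and cell type the UMIs of a gene were added up and scaled to 1000000 UMIs (CPM), with exact Poisson intervals, and log2 ratios of FGF8 over BSA with exact conditional intervals (scipy 1.17.1). A gene was compared where both libraries together held at least 10 UMIs. Shares carry exact binomial (Clopper-Pearson) intervals. With 1 library per condition no p-values were computed. Counts were simulated by Poisson draws for 20057 genes of the fibroblast-like comparison, with 200 changed. The intervals held the true value for 97% of changed and 96% of unchanged genes. Such draws hold no clumping by cell or animal, so this checked the calculation only and not the coverage in these data. Genes named were the 9 members, 39 pathway genes, and for each member with at least 100 UMIs the 5 genes most like it. The members and lists were chosen with earlier results of these data known. Gene positions are from GENCODE annotation of GRCm39. For 1 gene of the pathway list no value of its own is reported here. Alternatives changed the cell filter (stricter: over 500 and under 6000 genes, under 10% mitochondrial), integration, resolution, variable features, thinning, cell weights, sex, centring, doublet scores and UMI minimum.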

Additional observations from a re-analysis of the deposited data

Results flagged for a closer look

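Several members had intervals on opposite sides of 0 in different cell types, counting clusters of the finer division with at least 20 UMIs of the gene in each library. The macrophage-like cells of the coarser division, where most members compared had intervals above 0, are not in this list. All were log2 ratios of FGF8 over BSA, and the difference between cell types was not tested, since each value came from 1 library per condition. *Ptch1* was above 0 in the Schwann-like (0.38) and epidermal keratinocyte-like cells (0.48, but 0.0058 with a stricter cell filter) and below 0 in the Fmod/Kcnma1 (-0.61), H1f5/Ube2c (-0.52) and chondrocyte-like cells of the finer division (-0.67). *Smo* was at 0.94 in the epidermal keratinocyte-like and -0.19 in the Fmod/Kcnma1 cells. *Gli1* was at 0.95 in the Corin/Adamts18 and -0.93 in the H1f5/Ube2c cells. *Gli3* was at 0.089 in the Chodl/Sema3a and 0.71 in the epidermal keratinocyte-like cells, and at -0.36 in the H1f5/Ube2c and -0.45 in the Mmp3/Prg4 cells.

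*Hhip* was above 0 in the Corin/Adamts18 cells alone (0.69). It was below 0 in the Agtr2/Lpl (-0.68), Chodl/Sema3a (-0.45), Coch/Nrg1 (-0.40), H1f5/Ube2c (-1.21), Lars2/Camk1d (-1.24), Mmp3/Prg4 (-1.22) and chondrocyte-like cells (-0.97, where 28 of the BSA UMIs came from 1 cell).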

How the results depend on the processing

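Pooling of 5 mice into 1 library per condition limits every value: intervals cover counting error, not animals, and the unequal sexes cannot be told apart from the bead except within sex calls. No paired analysis was possible because each condition had 1 library.

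In fibroblast-like cells, *Hhip* stayed below 0 under every alternative run, from -0.85 to -0.22, and the median of the other pathway genes stayed between -0.21 and -0.03. The count of members past 2-fold, 2 as reported, was 1 with the stricter cell filter, at resolution 0.2, with all variable features, in female-called or male-called cells, and without the cells of highest Scrublet scores. It was 0 when thinned to 2000 or 5000 UMIs and with at least 50 UMIs. The stricter filter gave *Ptch1* -0.30, *Gli1* -0.45, *Gli2* -0.31, *Gli3* -0.088 and *Hhip* -0.59. Resolution 0.2, which kept 2224 fibroblast-like cells, gave *Ptch1* -0.052, *Smo* -0.014, *Gli2* -0.013 and *Hhip* -0.22, and reversed *Gli1* (0.0037) and *Gli3* (0.042). Thinning to 2000 UMIs gave *Ptch1* -0.12 and *Gli2* -0.053, and reversed *Gli3* (0.014), *Ihh* (-0.38, on 5 UMIs) and *Hhip* in the Corin/Adamts18 cells (-0.0074). Thinning to 5000 gave *Ptch1* -0.14, *Smo* -0.12, *Gli1* -0.18, *Gli2* -0.37, *Gli3* -0.12 and *Hhip* -0.65, and reversed *Ihh* (-0.23, on 5 UMIs). Weighting every cell equally gave *Ptch1* -0.13, *Smo* -0.11, *Gli1* -0.28, *Gli2* -0.18 and *Hhip* -0.47, and reversed *Gli3* (0.087). Female-called cells gave *Ptch1* -0.19, *Smo* -0.34, *Gli2* -0.35 and *Hhip* -0.61, and male-called cells *Ptch1* -0.93 and *Gli2* -0.61. Centring on the median gene gave *Gli3* -0.13. Equal shares of the finer clusters, chosen after the data were seen, gave *Ptch1* -0.21, *Smo* -0.029, *Gli1* -0.39, *Gli2* -0.19, *Gli3* -0.11 and *Hhip* -0.52. Leaving out the low-UMI clusters, also chosen then, moved none of these. The cause was not tested.

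Elsewhere, *Ihh* in chondrocyte-like cells (0.16) ran from -1.02 in female-called cells to 1.66 with the stricter filter, with 1.10 in male-called cells, and *Dhh* in Schwann-like cells (-0.04) from -0.92 to 1.14 in the same sets. *Ptch1* in keratinocyte-like cells was 0.0058 with the stricter filter. Without the cell with most UMIs of the gene in each library, chosen after the data were seen, *Hhip* in chondrocyte-like cells was -0.0055 and *Ihh* there 0.39.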
